A study of Mus musculus with 24 samples.

Results

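JAK kinases, STAT factors and gp130 were examined as 9 genes: Jak1, Jak2, Jak3, Tyk2, Stat3, Stat5a, Stat5b, Stat6 and Il6st, the gene of gp130. They were taken by symbol, with earlier results of these data known, and were 9 of the 24091 genes in the count table. Each of the 9 passed the filter on low counts that left 13520 genes for testing. Bulk RNA-seq was performed on LSKs, the Lin-Sca-1+c-Kit+ fraction of mouse bone marrow that holds stem cells and multipotent progenitors. The 4 groups were WT, miR-142 KO (miR-142-/-), CP CML (miR-142+/+ BCR-ABL) and BC CML (miR-142-/- BCR-ABL), with 6 mice (3 females and 3 males) and 1 library per mouse in each. Mice were on the B6 background, and in both CML groups a SCLtTA/BCR-ABL transgene was switched on by tetracycline withdrawal 2 weeks before sampling. Because BCR-ABL is driven through the SCL promoter, it is limited to cells that use this promoter, and the paper describes CP CML in this model as not progressing to BC without a further change. The paper's methods give 5 mice per group without naming them, so all 6 were used.

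Cytokine receptors have no kinase of their own. Each receptor chain binds a JAK (JAK1, JAK2, JAK3 or TYK2), and ligand binding lets the paired JAKs phosphorylate the receptor and the docked STAT factors, which dimerize and enter the nucleus. gp130 is the signal chain shared by the receptors of IL-6, LIF, oncostatin M and related ligands, and it acts mainly through JAK1 and STAT3, whereas BCR-ABL is known to activate STAT5 in CML cells. RNA counts measure none of these phosphorylations.

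The miR-142 gene is read into a hairpin that yields a pair of mature arms, whose seeds (bases 2 to 8, in capitals) pair with matching sites in mRNAs. The mature sequences are from RefSeq (GRCm38.p6), on the plus strand at chr11:87756903-87756925 for the 3p arm and chr11:87756867-87756887 for the 5p arm.
miR-142a-3p: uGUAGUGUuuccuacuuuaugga
miR-142a-5p: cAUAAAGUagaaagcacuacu

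The longest 3′ UTR of each of the 9 genes (GENCODE M21) was searched for 3 kinds of match: the 7 bases that pair with the seed (7mer-m8), the 6 bases that pair with seed bases 2 to 7 followed by an A (7mer-A1), and both together (8mer). Il6st, with a UTR of 5641 bases, held 6 sites, and it was the only one of the 9 genes with a miR-142a-3p site. Its sites on chromosome 13 (plus strand) are shown because Il6st is the gene that differed most with miR-142 loss; capitals mark the match.
Il6st 3p 7mer-A1, chr13:112504596-112504617: ttctccttcaagCACTACAtga
Il6st 3p 8mer, chr13:112506251-112506273: agaccagaattcACACTACAagg
Il6st 3p 7mer-m8, chr13:112509876-112509897: tggttaagtcccACACTACtac
Il6st 5p 7mer-m8, chr13:112504610-112504631: ctacatgaactgACTTTATcct
Il6st 5p 7mer-m8, chr13:112505281-112505302: ggttgaggaagcACTTTATcca
Il6st 5p 7mer-A1, chr13:112509834-112509855: atctatagtgagCTTTATAcaa

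The first 3p and first 5p sites of Il6st lie 163 and 177 bases into the UTR, and the 8mer lies at base 1818. The last site of each arm, at bases 5401 (5p) and 5443 (3p), lies beyond the end of Il6st in the deposited table (chromosome 13, 112464070 to 112506860), so only a longer transcript than the one counted would hold them. Of the other 8 genes, Jak1, Stat3 and Stat5a each held 1 site, all for the 5p arm, and Jak2, Jak3, Tyk2, Stat5b and Stat6 held 0. The Stat5a site is shown because Stat5a, like Il6st, rose in miR-142 KO LSKs.
Stat5a 5p 7mer-A1, chr11:100884385-100884406: atcttagtgaccCTTTATAcct
The Stat3 site, at base 3658 of a UTR of 3701 bases, lies where the longest Stat3 transcript runs past its deposited end into Stat5a. A miR-142a-3p 8mer was present in 555 of 21020 genes with a 3′ UTR (2.64%), and any miR-142a-3p site in 10.3%. As many sites as in Il6st were present in 38 genes (0.181%), and long UTRs hold more: of 784 UTRs from 0.8 times to 5/4 of the length of that of Il6st, 11 (1.4%) held as many and 10.2% held a 3p 8mer. The number of sites used here includes the last site of each arm in Il6st, beyond its deposited end. Shares for the UTR within the deposited coordinates were not computed. A match describes the letters and is not a measured binding site.

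**Figure D1:**
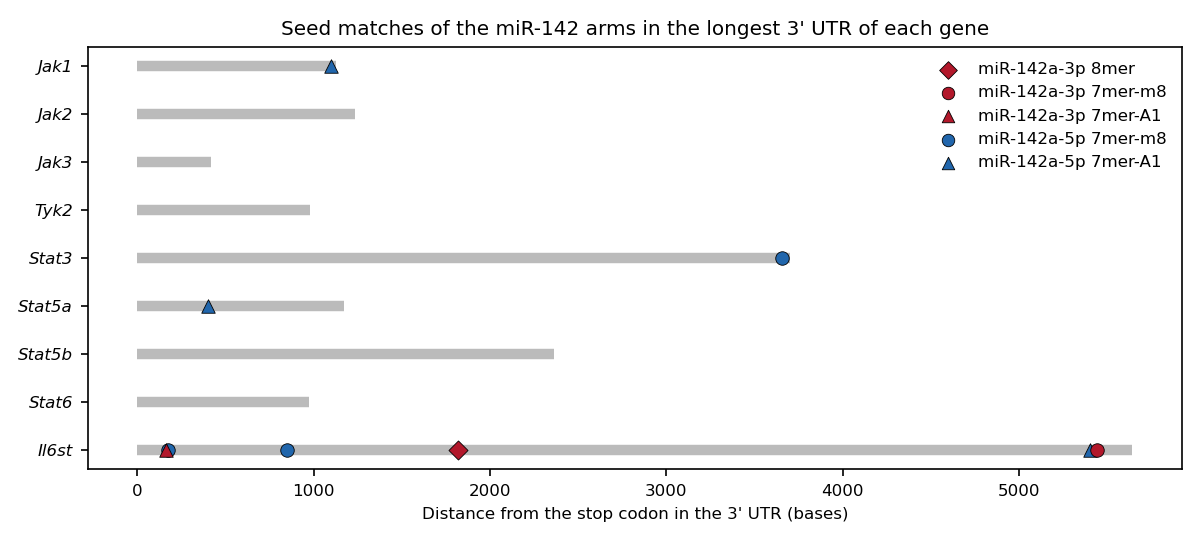
The longest 3′ UTR of each of the 9 genes (grey bar, bases from the stop codon) with its seed matches for miR-142a-3p (red) and miR-142a-5p (blue); the marker shape gives the kind of match. Il6st holds 6 sites, 3 per arm, Jak1, Stat3 and Stat5a hold 1 blue site each, and the other 5 genes hold 0.

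Total counts per library ranged from 16267965 to 24687077, and each of the 9 genes had at least 1439 counts in each library. The targeted gene, Mir142, had between 94 and 127 counts in the WT and between 68 and 153 in the CP CML libraries. It had 0 counts in each miR-142 KO and BC CML library, which allows up to 3 counts (a limit for counting error only). These are counts on the Mir142 gene in mRNA libraries, and the mature arms were not measured. Levels are given as CPM, the usual unit of read counts corrected for library size, here after TMM scaling. Kit and Ly6a (Sca-1), the genes of the sort gate, were summed with Cd34, which is not part of that gate. The sums were 1868.8 to 2496.2 CPM over all libraries, and these genes were never at 0. Tests were quasi-likelihood tests in edgeR across all 13520 genes with all 24 libraries in 1 fit, and a gene was called at an adjusted p (Benjamini-Hochberg) below 0.05. BC CML was compared with CP CML and miR-142 KO with WT to ask what the loss of miR-142 changes with and without BCR-ABL; these comparisons share no library. CP CML was compared with WT and BC CML with miR-142 KO for the effect of BCR-ABL, again with no library in common, although each library enters 1 comparison of each kind.

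Jak1 and Stat3 were the most abundant of the 9 genes in every group, and Tyk2 the least. Per kb of gene length, Jak1, the kinase shared by gp130, interferon and common gamma chain receptors, stood at 90.1 ± 5.02 CPM per kb in WT and 88.1 ± 3.07 in miR-142 KO, against 81.5 ± 2.49 with BCR-ABL in CP CML and 79.9 ± 2.56 in BC CML (mean ± SD, n = 6). Stat3, the main STAT of gp130, came next at 53.0 ± 4.67, 56.1 ± 5.63, 64.8 ± 4.57 and 60.4 ± 2.29 CPM per kb in the same order of groups. Tyk2, a kinase of interferon and IL-12 receptors, lay between 14.1 and 14.9 CPM per kb in the group means. In each group the libraries of Jak1 and Stat3 did not overlap with each other, nor did those of Stat3 with the gene ranked below it. Stat5b, Jak3, Stat6 and Jak2 followed in WT at 41.9, 37.4, 37.0 and 33.9 CPM per kb, and neighbours in this run overlapped. Stat5a (21.1) overlapped with Il6st (16.9), and Il6st with Tyk2 (14.1). The place of Il6st was the one that moved most: it ranked 8 of 9 in WT and CP CML, but 7 in miR-142 KO and 5 in BC CML LSKs. In BC CML, Il6st stood at 33.7 ± 5.81 CPM per kb and overlapped with Stat5b above it (34.6 ± 2.47) and Jak3 below it (31.4 ± 2.86), while Stat5a, at 20.4 ± 0.737, ranked 8.

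**Figure D2:**
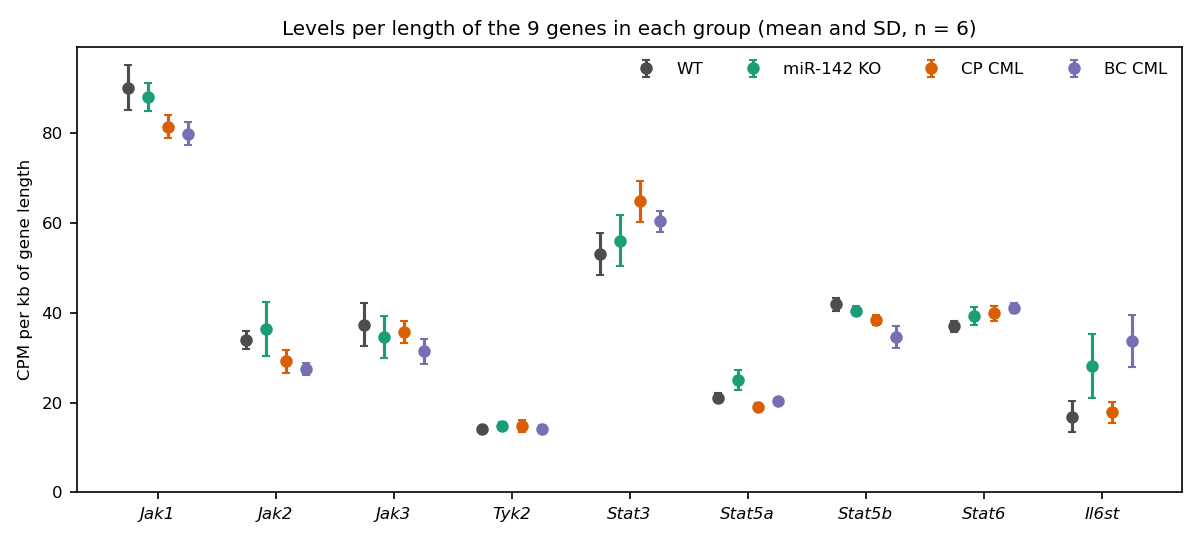
Mean level of each gene in CPM per kb of gene length in LSKs of the 4 groups (points) with the SD over 6 mice (bars). Jak1 and Stat3 lead in every group, and Il6st is near Stat5a in WT and CP CML and near Jak3 in BC CML.

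Il6st was the gene of the 9 that changed most with loss of miR-142, in BCR-ABL mice and in mice without BCR-ABL. In WT the lowest, median and highest libraries had 105.1, 120.0 and 172.3 CPM of Il6st, and in miR-142 KO 146.8, 218.3 and 293.2 CPM. CP CML libraries had 118.8, 135.8 and 159.2 CPM, and BC CML libraries 214.2, 244.6 and 326.8 CPM. All 6 BC CML libraries were above all 6 CP CML libraries, whereas 4 of the 6 miR-142 KO libraries were above every WT library. The fold was 1.89 in BC CML over CP CML (95% interval 1.52 to 2.35; log2 fold change 0.92, SE 0.15, adjusted p = 5.63e-05). It was 1.67 in miR-142 KO over WT (1.34 to 2.08; log2 fold change 0.74, SE 0.15, adjusted p = 0.000562). The log2 fold changes differed by 0.18 between these comparisons, with a 95% interval of -0.26 to 0.62 (adjusted p = 0.704). With each mouse left out in turn they ranged from 0.83 to 0.95 and from 0.64 to 0.84, and each kept its call. In sorted bulk samples a change in the number of cells of a type and a change in RNA per cell cannot be told apart.

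Il6st was also higher without miR-142 in each sex, in fits of 3 mice per group that were added after the data were seen. In females the log2 fold change was 0.84 (adjusted p = 0.0226, edgeR) in BC CML over CP CML and 0.80 (adjusted p = 0.0235) in miR-142 KO over WT. In males it was 0.99 (adjusted p = 0.00362) and 0.66 (adjusted p = 0.0324). BCR-ABL itself left Il6st with no call: the log2 fold change was 0.08 (95% interval -0.24 to 0.39, adjusted p = 0.704) in CP CML against WT and 0.26 (-0.06 to 0.57, adjusted p = 0.182) in BC CML against miR-142 KO.

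**Figure D3:**
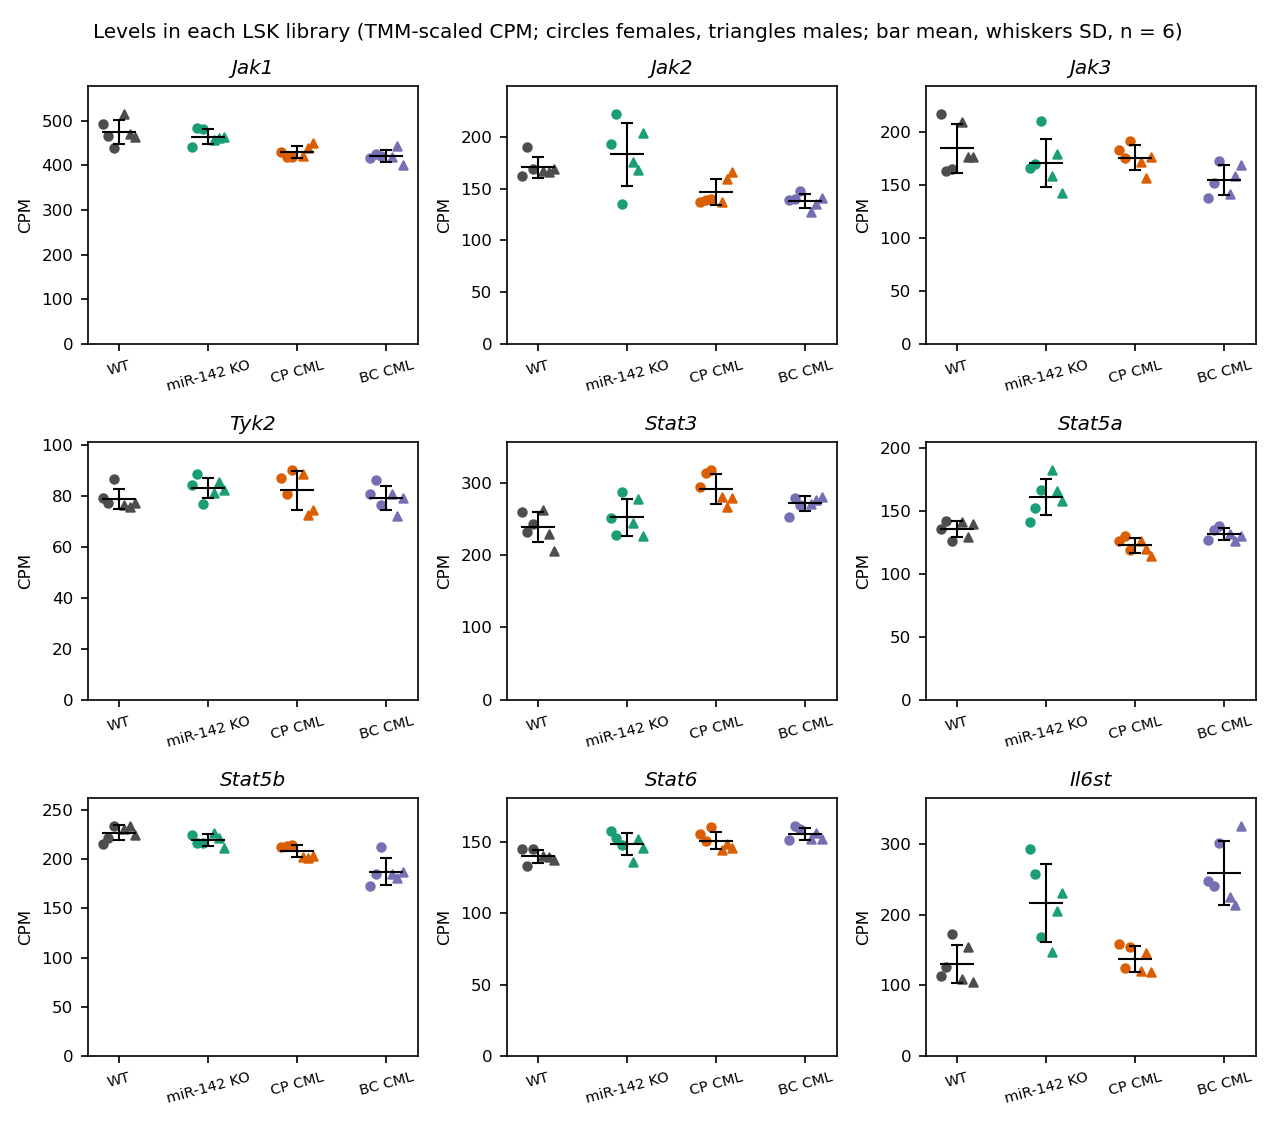
TMM-scaled CPM of each of the 9 genes in every LSK library (circles females, triangles males), with the mean (bar) and SD (whiskers) over 6 mice per group and axes that start at 0. The 6 BC CML points of Il6st, at 214.2 CPM or more, lie above all CP CML points, at 159.2 CPM or less; the other genes shift by far less.

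Within miR-142 KO, Il6st varied more than in any other group (SD 55.1 CPM), with 293.2, 258.3, 168.2, 146.8, 205.2 and 231.4 CPM in replicates 1 to 6. In the same order, the markers of mast cells or basophils (Mcpt8, Cpa3, Ms4a2, Fcer1a and Gata2) summed to 1084.7, 1842.7, 674.7, 695.5, 423.5 and 1669.1 CPM. Those of monocytes, macrophages or dendritic cells (9 genes) summed to 505.5, 380.0, 115.0, 222.4, 315.3 and 403.0 CPM. The 3 libraries with the most Il6st thus had the 3 highest sums of both lists. They also had the 3 highest sums of T or NK cell markers (175.1, 222.0 and 181.6 CPM, against 145.1 or less). The other marker lists did not have these 3 libraries highest. In BC CML, the T or NK cell sums were lowest in replicates 3 and 6 (102.6 and 112.8 CPM), the libraries with the most Il6st. The mast cell or basophil sums did not follow Il6st in BC CML either. Replicate 3, second in Il6st at 301.7 CPM, had the lowest sum (3263.7 CPM), and replicate 5, lowest in Il6st at 214.2 CPM, had 6310.2 CPM. Between WT and CP CML the median of these sums went from 447.8 to 1863.1 CPM, while Il6st was not called (0.08). The monocyte, macrophage or dendritic cell sums were highest in BC CML replicates 3 and 6 (510.6 and 462.8 CPM). These were the BC CML libraries with the most Il6st (301.7 and 326.8 CPM). This was not so in CP CML: replicate 1, highest in Il6st at 159.2 CPM, had 346.7 CPM. Replicate 6 of CP CML, lowest in Il6st at 118.8 CPM, had 551.5 CPM. In WT, the library with the most Il6st, replicate 3, had the highest sum of the monocyte, macrophage or dendritic cell list, 1229.8 CPM against 292.4 or less in the other 5. Without it the log2 fold change of Il6st in miR-142 KO over WT was 0.84 (adjusted p = 0.000157). The part of such cells in the level of Il6st was not tested.

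The marker lists moved with the groups as follows, and their part in any result on the 9 genes was not tested. Of Kit, Ly6a and Cd34, Ly6a was called with a rise in both miR-142 comparisons. Kit was called with a fall after miR-142 loss in BCR-ABL mice and with a rise in CP CML against WT. Cd34 was called with a fall in both BCR-ABL comparisons. Stem cell markers (7 genes) fell for 5 of 7 in both miR-142 comparisons and for 7 of 7 in CP CML against WT, with sums of 482.3 to 953.2 CPM in WT and 289.7 to 415.4 in miR-142 KO, and of 359.9 to 493.3 for CP CML and 223.2 to 315.5 for BC CML. Neutrophil-primed markers (6 genes) rose for 4 of 6 in BC CML over CP CML and for 6 of 6 in miR-142 KO over WT, with sums of 1290.8 to 4891.1, 2826.7 to 7608.9, 4540.4 to 7714.3 and 5908.1 to 8676.0 CPM in the same order. Mast cell or basophil markers rose for 3 and 5 of 5, with sums of 1224.5 to 2228.2 CPM in CP CML against 3263.7 to 7030.8 in BC CML, and of 254.2 to 572.2 in WT and 423.5 to 1842.7 in miR-142 KO. B lineage and plasma cell markers fell for 4 and 3 of 8 tested, and their sums were 70.7 to 981.9 CPM in WT and 173.2 to 793.6 in CP CML, against 27.6 to 42.8 in miR-142 KO and 28 to 39.9 in BC CML. Lymphoid-primed markers fell for 2 and 3 of 5, and 1 rose in BC CML. Monocyte, macrophage or dendritic cell markers fell for 1 (Siglech) and 4 of 9 (C1qa, C1qb, C1qc and Siglech), with median log2 fold changes of -1.10 and -1.69. Their sums had medians of 442.0 CPM in CP CML and 368.8 in BC CML, and of 261.1 in WT and 347.6 in miR-142 KO. T or NK cell markers rose for 2 and 5 of 7 tested and fell for 2 in each. Megakaryocyte markers rose for 0 and 4 of 4, mature neutrophil markers rose for 0 and 4 of 6 and fell for 2 and 0, and erythroid markers fell for 2 and 1 of 3 tested.

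Over the 9 genes, 2 were called in BC CML against CP CML (Il6st higher, Stat5b lower), where 38.0% of all tested genes were called. By direction, 20.4% of all tested genes were higher and 17.6% lower, so the count of the 9 genes was not above the background. Only Il6st had no overlap between these groups, against 20.7% of all tested genes. The median log2 fold change was -0.05 over the 9 genes and 0.01 over all tested genes. In miR-142 KO against WT, 2 of 9 were called (Il6st and Stat5a, both higher) against 36.3% of all tested genes (19.9% higher and 16.4% lower), 0 of 9 had no overlap against 14.5%, and the median was 0.08 against 0.01. Between the miR-142 effects with and without BCR-ABL, edgeR called a difference for 0 of 9 genes, against 3.99% of all tested genes (1.91% higher and 2.08% lower). The likelihood ratio test of edgeR and DESeq2 also called 0. Only Stat5a had an unadjusted p below 0.05 in edgeR (adjusted p = 0.245).

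**Figure D4:**
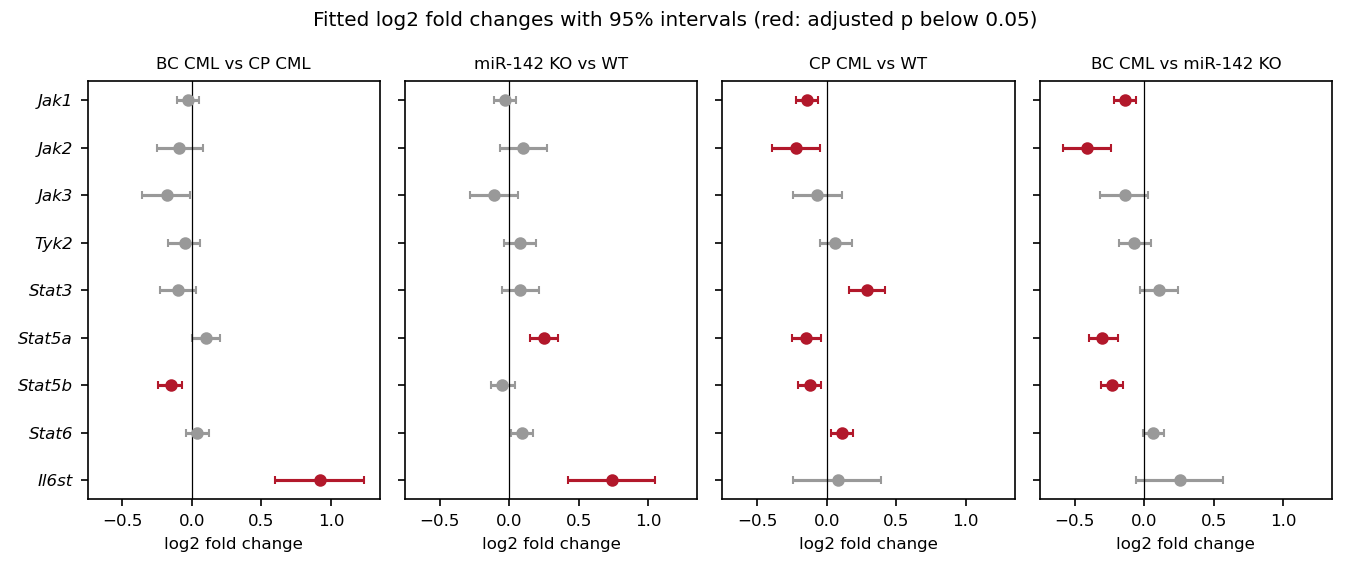
Fitted log2 fold change of each of the 9 genes (points) with its 95% interval (bars) in the 4 comparisons between groups of 6 mice; red marks an adjusted p below 0.05. With miR-142 loss (left pair) Il6st stands at 0.92 and 0.74 and the other genes lie between -0.18 and 0.25; with BCR-ABL (right pair) Jak1, Jak2, Stat5a and Stat5b are red and below 0 in both panels.

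The JAK kinases were not called in either miR-142 comparison. Jak2, the kinase of the receptors for erythropoietin, thrombopoietin, IL-3 and GM-CSF, had 162.1, 168.2 and 190.1 CPM (lowest, median and highest) in WT and 135.7, 184.8 and 222.8 CPM in miR-142 KO. It had 137.3, 139.9 and 166.5 CPM in CP CML and 127.5, 139.3 and 147.6 CPM in BC CML. The miR-142 KO libraries ranged on both sides of WT, with a log2 fold change of 0.10 (95% interval -0.07 to 0.27, adjusted p = 0.339). Replicate 3, at 135.7 CPM, decided this result: without it the log2 fold change was 0.18 (adjusted p = 0.0348). That library also had the lowest sum of neutrophil-primed markers of its group, 2826.7 CPM against 6232.6 or more in the others. In BC CML against CP CML, Jak2 had a log2 fold change of -0.09 (-0.25 to 0.08, adjusted p = 0.429).

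Jak3, which works with the common gamma chain of lymphoid cytokine receptors, had 156.7, 175.8 and 191.7 CPM in CP CML and 137.6, 154.8 and 172.5 CPM in BC CML. The groups overlapped, with 3 BC CML libraries below every CP CML library and a log2 fold change of -0.18 (95% interval -0.36 to -0.01, adjusted p = 0.0926). Jak3 was called with upper quartile normalization (-0.23, adjusted p = 0.0404) and with only the samples compared (-0.20, adjusted p = 0.0231). It was also called without miR-142 KO replicate 3 (adjusted p = 0.0411), miR-142 KO replicate 6 (0.0479), CP CML replicate 5 (0.0442) or BC CML replicate 3 (0.0343). In miR-142 KO (142.5, 167.8 and 210.3 CPM) against WT (162.8, 176.3 and 217.3 CPM) its log2 fold change was -0.11 (adjusted p = 0.321). Jak1 had a log2 fold change of -0.03 in both miR-142 comparisons, with 95% intervals of -0.11 to 0.05. Tyk2 had -0.05 (-0.17 to 0.06) in BC CML against CP CML and 0.08 (-0.04 to 0.19) in miR-142 KO against WT.

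Among the STATs, the levels of the STAT5 pair lay closer together without miR-142. Stat5a and Stat5b encode closely related factors that act downstream of many JAK2 receptors. Stat5a had 126.2, 137.1 and 141.9 CPM (lowest, median and highest) in WT and 141.1, 161.5 and 182.6 CPM in miR-142 KO, and 5 of the 6 miR-142 KO libraries were above every WT library. The log2 fold change was 0.25 (SE 0.05, adjusted p = 0.000435), a rise of 18.8%. It had 114.4, 122.7 and 130.1 CPM in CP CML and 126.2, 130.7 and 138.2 CPM in BC CML, where 3 of 6 libraries were above every CP CML library and the log2 fold change, 0.10, was not called (adjusted p = 0.124). Stat5b had 201.9, 208.5 and 215.0 CPM in CP CML and 172.9, 185.4 and 212.8 CPM in BC CML. Of the 6 BC CML libraries, 5 were below every CP CML library, and the log2 fold change was -0.15 (SE 0.04, adjusted p = 0.00466). In miR-142 KO against WT Stat5b had a log2 fold change of -0.05 (95% interval -0.13 to 0.04, adjusted p = 0.381).

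The ratio of Stat5a to Stat5b, taken within each library per kb, was higher without miR-142. Its mean was 0.503 in WT (0.454 to 0.539) and 0.616 in miR-142 KO (0.530 to 0.679), and 0.496 in CP CML (0.467 to 0.523) and 0.591 in BC CML (0.548 to 0.616). The BC CML and CP CML ratios did not overlap, with a difference of 0.25 on the log2 scale (two-sided exact permutation test, p = 0.00216, the smallest that 6 against 6 mice can give; adjusted p = 0.0173 over 8 ratio tests). The miR-142 KO and WT ratios overlapped slightly and differed by 0.29 (exact permutation p = 0.00433, adjusted p = 0.0173). BCR-ABL was not seen to shift the ratio, with a log2 difference of -0.02 in CP CML against WT (exact permutation, adjusted p = 0.645) and -0.06 in BC CML against miR-142 KO (adjusted p = 0.398). Stat5a and Stat5b share 262 windows of 1 read length, 7.2% of those of a Stat5a transcript and 5.12% of those of a Stat5b transcript. A single read from such a window could not by itself be assigned to 1 of these genes. The paper's libraries were sequenced as read pairs, and the share of pairs that could not be assigned was not measured. The ratio of Jak2 to Jak1, taken in the same way, had means of 0.377 in WT and 0.409 in miR-142 KO, against 0.357 for CP CML and 0.344 for BC CML. None of its 4 comparisons passed, although BC CML against miR-142 KO, at -0.25 (exact permutation p = 0.0541, adjusted p = 0.144), did so without miR-142 KO replicate 3 (-0.34, adjusted p = 0.00866).

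Stat3 and Stat6 were not called in either miR-142 comparison. Stat3 had 266.3, 286.3 and 317.8 CPM in CP CML and 252.5, 273.7 and 280.4 CPM in BC CML, a log2 fold change of -0.10 (95% interval -0.23 to 0.03, adjusted p = 0.209). It had 205.9, 237.3 and 261.8 CPM in WT and 225.8, 247.3 and 286.5 CPM in miR-142 KO (0.08, -0.05 to 0.21, adjusted p = 0.339). Stat6, the STAT of the IL-4 and IL-13 receptors, had 144.7, 149.8 and 160.3 CPM in CP CML and 151.6, 154.2 and 161.6 CPM in BC CML (0.04, -0.04 to 0.12, adjusted p = 0.400). In miR-142 KO Stat6 had 135.8, 150.3 and 157.8 CPM against 132.9, 139.9 and 145.2 CPM in WT, and 5 of 6 libraries were above every WT library (0.09, 0.01 to 0.17, adjusted p = 0.0729). That comparison was called without WT replicate 3 (adjusted p = 0.0428), miR-142 KO replicate 4 (0.0189) or CP CML replicate 3 (0.0481).

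In the comparisons of groups with and without BCR-ABL, the genes called among the 9 were kinases and STATs. In CP CML against WT, 6 of 9 were called against 45.4% of all tested genes (22.5% higher and 22.9% lower): Stat3 and Stat6 were higher, and Jak1, Jak2, Stat5a and Stat5b were lower. In BC CML against miR-142 KO, 4 of 9 were called against 39.6% of all tested genes (20.3% higher and 19.3% lower), and these were again Jak1, Jak2, Stat5a and Stat5b, each lower. The median log2 fold change was -0.07 and -0.14 over the 9 genes and -0.02 over all tested genes in each. Groups did not overlap for 2 of 9 (Stat3 and Stat5b) against 21.8% of all tested genes in CP CML against WT, and for 1 of 9 (Stat5a) against 10.6% in BC CML against miR-142 KO.

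Of the kinases, Jak1 had 439.4, 469.0 and 516.2 CPM in WT and 418.7, 425.8 and 451.1 CPM in CP CML, with 4 of 6 CP CML libraries below every WT library (log2 fold change -0.14, SE 0.04, adjusted p = 0.00418). Between miR-142 KO (440.3, 462.5 and 483.7 CPM) and BC CML (401.8, 420.5 and 443.3 CPM) it fell by the same 0.14 (SE 0.04, adjusted p = 0.00601). Jak2 fell by 0.41 on the log2 scale in BC CML against miR-142 KO (SE 0.08, adjusted p = 0.000592), yet only 2 of 6 BC CML libraries were below every miR-142 KO library, since replicate 3 of the latter stood at 135.7 CPM. In CP CML against WT it had a log2 fold change of -0.22 (95% interval -0.39 to -0.05, adjusted p = 0.0326). This call was lost in 16 of the 24 fits that left out 1 mouse: WT replicates 2 to 5, miR-142 KO replicates 1 and 5, CP CML replicates 1 to 4 and each BC CML replicate (adjusted p up to 0.114). Jak3 and Tyk2 were called in neither comparison, with log2 fold changes of -0.07 and 0.06 in CP CML against WT and -0.14 and -0.07 in BC CML against miR-142 KO.

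Of the STATs, Stat3 rose in CP CML over WT by 0.29 on the log2 scale (SE 0.06, adjusted p = 0.000891), with all 6 CP CML libraries above all 6 WT libraries. In BC CML over miR-142 KO the value was 0.11 (95% interval -0.03 to 0.24, adjusted p = 0.191). Stat6 was 0.11 higher in CP CML than in WT (SE 0.04, adjusted p = 0.0222), which was not called with upper quartile normalization (0.07, adjusted p = 0.15). Stat5a was lower in CP CML than in WT (-0.15, SE 0.05, adjusted p = 0.021) and in BC CML than in miR-142 KO, where all 6 libraries lay below all 6 of the other group (-0.30, SE 0.05, adjusted p = 0.000114). Stat5b, at 215.3, 227.8 and 234.4 CPM in WT and 211.9, 219.2 and 226.8 CPM in miR-142 KO, was lower in CP CML (-0.12, SE 0.04, adjusted p = 0.0156) and in BC CML (-0.23, SE 0.04, adjusted p = 0.000176). In CP CML against WT, the call of Stat5a was lost without WT replicate 2 or 4 or CP CML replicate 3, 5 or 6 (adjusted p up to 0.0824), and that of Stat5b without WT replicate 3 or 5 or CP CML replicate 4, 5 or 6 (adjusted p up to 0.0686).

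Stat5b (chromosome 11, 100780731 to 100850585, minus strand), Stat5a (100859351 to 100885169, plus strand) and Stat3 (100886806 to 100939540, minus strand) are neighbours on mm10. The starts of Stat5b and Stat5a are 8766 bases apart, and the ends of Stat5a and Stat3 1637 bases. Mir142, on the same chromosome, is 13.0 Mb away from Stat5b. Jak1 shares 397 bases with Raver2, Jak3 shares 1326 with Insl3 and Stat6 shares 70 with Nab2 in the deposited coordinates, and reads there could not be told apart if strand was not used in counting, which the sources used here do not state. The palindrome TTCNNNGAA, the core that STAT dimers are known to bind, was searched on both strands of RefSeq promoter windows (250 bases before to 50 after a start). It was present in 0 of the 11 windows of the 9 genes and in 8.3% of 32851 windows of all genes.

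For the genes called in a miR-142 comparison, the genes with the most similar pattern over the 24 libraries were found by the root mean square difference of centred log2 CPM. For Il6st (own spread 0.494) these were Gbp3 at 0.212, which encodes an interferon-induced GTPase, and Hexa at 0.219, which encodes a lysosomal enzyme. Hexa rose by 0.67 in BC CML over CP CML (adjusted p = 1.36e-05) and by 0.62 in miR-142 KO over WT (adjusted p = 3.19e-05). For Stat5a (own spread 0.163) they were C330006A16Rik at 0.0736 and R3hdm4 at 0.082. For Stat5b (0.12) they were Smg6 at 0.0559 and Casc3 at 0.0582, both on chromosome 11 as Stat5b is.

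Around the 9 genes, 93 tested genes of the pathway were described by lists of ligands, receptors, inhibitors and targets. Beside the counts in each list stand the shares of all tested genes: 20.4% higher and 17.6% lower in BC CML against CP CML, and 19.9% higher and 16.4% lower in miR-142 KO against WT. Of the 8 tested gp130 family ligands, Lif rose and Clcf1 and Ebi3 fell in BC CML against CP CML; Osm rose and Ctf1 fell as well in miR-142 KO against WT. Ebi3, a subunit of IL-27, fell from 14.1 ± 1.11 to 7.30 ± 0.982 CPM in BC CML (mean ± SD of 6 mice; log2 fold change -0.95, adjusted p = 7.79e-05) and from 19.8 ± 6.39 to 8.37 ± 1.52 CPM in miR-142 KO (-1.24, adjusted p = 2.37e-06). Clcf1, a cytokine of this family, had log2 fold changes of -0.81 and -0.98 (adjusted p = 0.00158 and 0.000223). Lif rose from 11.3 ± 1.28 to 27.5 ± 8.58 CPM in BC CML (1.29, adjusted p = 0.0227), a call lost without BC CML replicate 5 (1.11, adjusted p = 0.059). In miR-142 KO its value was 1.56 (adjusted p = 0.0104) overall and -0.08 in males alone. Of 5 tested gp130 partner receptors, 1 fell in BC CML, Lifr, the LIF receptor, from 15.1 ± 2.99 to 7.10 ± 1.77 CPM (-1.08, adjusted p = 0.000175), and 0 were called in miR-142 KO. Il6ra, the IL-6 receptor chain that pairs with gp130, had -0.24 (adjusted p = 0.155) and 0.01 (adjusted p = 0.957).

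Receptors that use JAK2 were higher without miR-142 for 6 of 14 (3 lower) in BC CML against CP CML, with a median log2 fold change of 0.24, and for 9 of 14 (1 lower) in miR-142 KO against WT, with a median of 0.34. All tested genes were called higher for 20.4% and 19.9%, with a median of 0.01 in both. Ifngr2, the interferon gamma receptor chain that binds JAK2, rose from 49.6 ± 2.87 to 94.5 ± 4.33 CPM in BC CML (0.93, adjusted p = 5.35e-09) and from 34.4 ± 2.91 to 60.9 ± 10.1 CPM in miR-142 KO (0.82, adjusted p = 5.53e-08). Csf3r, the G-CSF receptor, rose by 0.49 and 0.39 (adjusted p = 0.000243 and 0.00205). Csf2rb, the chain shared by IL-3, IL-5 and GM-CSF receptors, rose by 0.49 in BC CML (adjusted p = 0.0348), a call lost without CP CML replicate 4, 5 or 6 or BC CML replicate 1, 2, 5 or 6, and by 0.88 in miR-142 KO (adjusted p = 0.000646).

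Receptors that use JAK1 with JAK3 or TYK2 were higher for 7 of 14 (1 lower; median 0.24) and 5 of 14 (1 lower; median 0.13) in the same comparisons. Il2ra, the alpha chain of the IL-2 receptor, rose from 12.8 ± 5.66 to 136.8 ± 34.8 CPM in BC CML (3.43, adjusted p = 1.95e-05) and from 2.13 ± 2.57 to 78.4 ± 63.6 CPM in miR-142 KO (5.22, adjusted p = 5.75e-07). Ifnar1, a type I interferon receptor chain, rose by 0.27 in BC CML (adjusted p = 4.02e-05) and had 0.11 in miR-142 KO (adjusted p = 0.0544). Of the 93 pathway genes, 5 held a miR-142a-3p 8mer: Ifnar1, Prlr, Sh2b1, Stam and Stam2. Of these, 2 were higher in both miR-142 comparisons, Stam2 and Sh2b1. Stam2, an adaptor that binds JAKs and sorts receptors to lysosomes, rose by 0.71 (adjusted p = 7.47e-12) and 0.55 (adjusted p = 1.05e-09), and Sh2b1, a JAK2 adaptor, by 0.18 (adjusted p = 0.00925) and 0.20 (adjusted p = 0.00513). Prlr, the prolactin receptor, fell in BC CML (-3.57, adjusted p = 0.00057) from a mean of 1.22 CPM. Among all tested genes with such an 8mer (390), 41.8% were higher and 13.8% lower in the comparison of BC CML with CP CML, against 19.8% and 17.8% of 11111 genes without a miR-142a-3p site. In miR-142 KO against WT these shares were 37.9% and 12.6% against 19.6% and 17%.

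**Figure D5:**
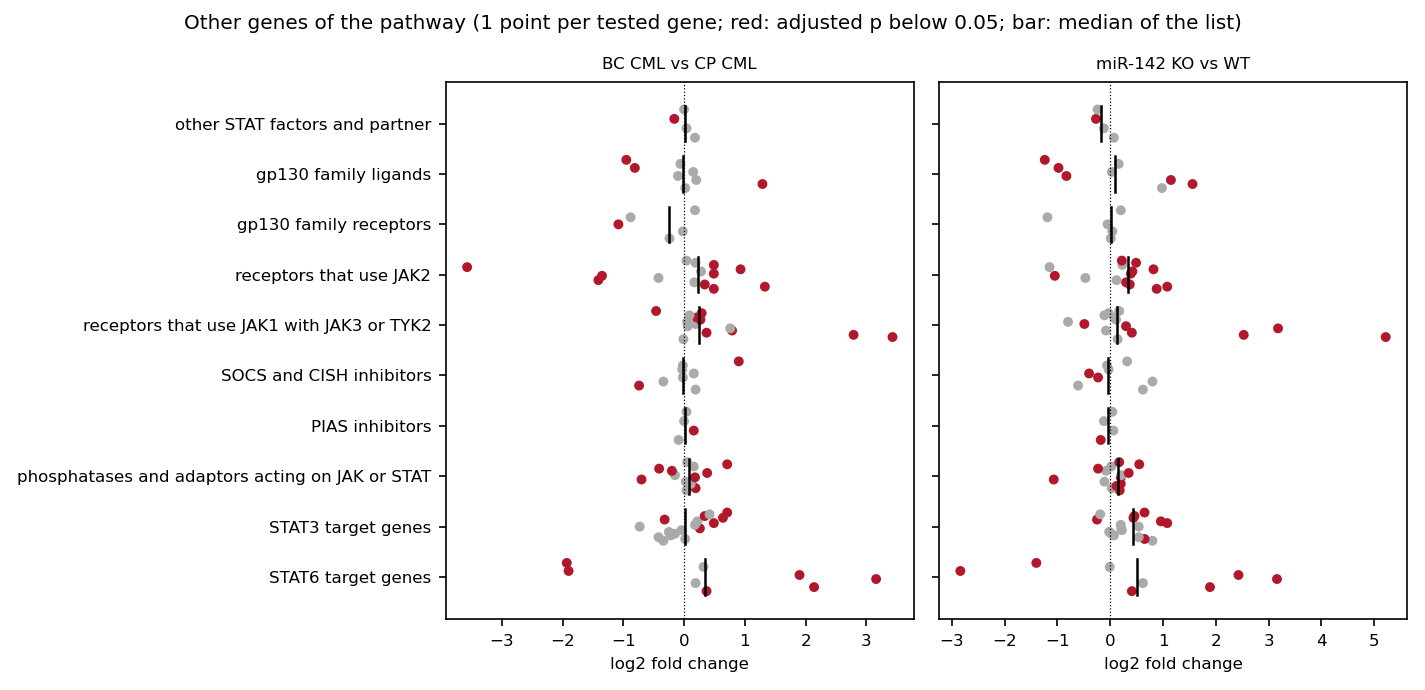
Log2 fold changes of the tested pathway genes in BC CML against CP CML (left) and miR-142 KO against WT (right), 1 point per gene in rows by list, with the median of each list as a bar; red marks an adjusted p below 0.05. The medians of the JAK2 receptors lie at 0.24 and 0.34, those of the SOCS and CISH inhibitors at -0.02 and -0.05.

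The SOCS and CISH inhibitors, some of which STATs induce and which then block JAKs or receptors, were called for 2 of 8 in each miR-142 comparison, against 38.0% and 36.3% of all tested genes. Of these, Cish rose (0.90, adjusted p = 0.00212) and Socs2 fell (-0.74, adjusted p = 0.022) in BC CML against CP CML, the latter not called without CP CML replicate 6 (-0.64, adjusted p = 0.0597). In miR-142 KO against WT, Socs4 and Socs5 fell (-0.23 and -0.40). In CP CML against WT, 5 of 8 were called, against 45.4% of all tested genes: Socs1, Socs2 and Socs3 rose, and Socs4 and Socs5 fell. In BC CML against miR-142 KO, 3 of 8 were called, near the 39.6% of all tested genes: Cish, Socs2 and Socs3 rose. Socs2 rose from 8.72 ± 2.86 to 34.3 ± 10.3 CPM in CP CML (1.97, adjusted p = 4.49e-06) and from 5.71 ± 2.45 to 20.4 ± 5.76 CPM in BC CML (1.84, adjusted p = 1.95e-05). Socs3, chosen after its values were seen, rose from 28.7 ± 13.1 to 138.8 ± 36.3 CPM in CP CML (2.27, adjusted p = 7.96e-05). Of the 4 PIAS inhibitors, Pias2 was higher in BC CML than in CP CML (0.16, adjusted p = 0.0188), a call lost in 7 of the 24 fits that left out 1 mouse (CP CML replicates 2, 3 and 4 and BC CML replicates 1, 3, 4 and 6), and Pias1 fell in miR-142 KO (-0.18, adjusted p = 0.00577). Pias1, Pias2 and Pias3 fell in CP CML against WT.

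Among 14 tested phosphatases and adaptors, 5 rose and 3 fell in BC CML against CP CML, and 7 rose and 2 fell in miR-142 KO against WT. All tested genes rose for 20.4% and 19.9% and fell for 17.6% and 16.4%, so the counts of those that fell were near the background. Sh2b3, an adaptor that restrains JAK2, rose by 0.38 and 0.35 (adjusted p = 0.000125 and 0.000231). Cblb, a ubiquitin ligase, fell (-0.41 and -0.23), as did Dusp22, a phosphatase (-0.70 and -1.07). Of Stat2, its partner Irf9 and Stat4, the last alone was called in the miR-142 comparisons, lower in both (-0.16, adjusted p = 0.0315, and -0.27, adjusted p = 0.00102); the former call was lost without CP CML replicate 5 or 6 or BC CML replicate 1. Stat2, Stat4 and Irf9 fell in CP CML against WT, whereas Stat3 and Stat6 were higher in that comparison.

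Of 17 tested STAT3 target genes, 5 rose and 1 fell in BC CML against CP CML (median 0.02), and 6 rose and 1 fell in miR-142 KO against WT (median 0.44), where 20.4% and 19.9% of all tested genes were higher and 17.6% and 16.4% lower. Tnfrsf1a, a TNF receptor, rose by 0.71 and 0.65 (adjusted p = 2.78e-08 and 1.53e-07), Hif1a, a hypoxia factor, by 0.64 and 0.44, and Bcl2l1, an inhibitor of apoptosis, by 0.34 and 0.46. In CP CML against WT, 11 of 17 rose and 0 fell (median 0.42), against 22.5% of all tested genes called higher. In BC CML against miR-142 KO 7 of 17 rose and 0 fell (median 0.25), against 20.3%. The part of Stat3 in these changes was not tested. Of 8 tested STAT6 target genes, 4 rose and 2 fell in each miR-142 comparison, against the same shares of all tested genes, and Stat6 was not called in either. Gata3, a regulator of T cells and innate lymphoid cells, rose from 12.8 ± 2.63 to 56.6 ± 10.3 CPM in BC CML (2.14, adjusted p = 4.21e-06) and by 1.89 in miR-142 KO (adjusted p = 1.49e-05), and Arg1, an arginase, by 3.16 in both (adjusted p = 7.77e-05 and 7.92e-05). The 2 that fell were Fcer2a, a low-affinity IgE receptor, and Mrc1, a macrophage receptor. Fcer2a had means of 0.465 CPM or less, and its call in miR-142 KO (-1.40, adjusted p = 0.0346) was lost without WT replicate 1, 4 or 5 or miR-142 KO replicate 1, 5 or 6 (adjusted p up to 0.118). Mrc1 had a log2 fold change of -1.90 in BC CML (adjusted p = 0.0216), a call lost without CP CML replicate 5 or 6. In miR-142 KO it had -2.84 (adjusted p = 0.00188), or -1.63 without WT replicate 3 (adjusted p = 0.0154), the WT library with the highest sum of macrophage markers.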

How the data were processed

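RNA was extracted from sorted LSKs of 24 mice, and mRNA libraries were sequenced. As the paper's methods and the submitters' processing notes state, the authors trimmed reads with Trimmomatic, mapped them to mm10 with STAR 2.6.0 and counted reads per gene with HTSeq 0.11.1. The deposited values are raw read counts per gene without normalization, next to a gene length column in kb, which was used for levels per kb. The annotation and strand setting are not given in the sources used here. Samples were grouped by their genotype labels, and all 24 columns were matched to a mouse. Replicates were numbered in accession order. Each library is a separate mouse.

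Counts were filtered with filterByExpr, scaled by TMM and tested in edgeR 4.0.16 (R 4.3.3) with quasi-likelihood F-tests (common dispersion 0.02838) and Benjamini-Hochberg adjustment over 13520 genes. Alternatives were the likelihood ratio test, DESeq2 1.42.0, RLE and upper quartile scaling, other filters, a sex term, fits on the compared groups alone, and each mouse left out. Fits within each sex were added after the data were seen. The fit was tested on simulated counts for BC CML against CP CML (13410 genes): 84 of 99 genes changed 2-fold, 48 of 100 genes changed by 4/3 and 6 of 13211 unchanged genes were called. Far fewer genes were changed there than the 38.0% called in the real comparison. The adjustment depends on that share, so the simulated shares need not hold for these data. Ratios used exact permutation tests in SciPy 1.17.1.

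The 9 genes and all lists were chosen with earlier results of these data known. Named genes were the 9, Mir142, the 3 genes of each list that had the lowest p in each miR-142 comparison, and the 2 genes most similar in pattern.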

Additional observations from a re-analysis of the deposited data

Results flagged for a closer look

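In groups of 6 libraries, 3 sets of values, of those of 9 genes in 4 groups, held a library set far from its neighbours by Dixon's criterion, which chance meets in about 1 of 20 groups. Jak2 was at 190.1 CPM in WT replicate 2 and between 162.1 and 169.6 CPM in the other WT libraries. Tyk2 was at 86.6 CPM in WT replicate 3 and between 75.5 and 79.3 CPM in the others. Stat5b was at 212.8 CPM in BC CML replicate 3 and between 172.9 and 187.3 CPM in the others; without that library the effect of miR-142 loss on Stat5b differed between BCR-ABL and other mice by -0.17 on the log2 scale (edgeR, adjusted p = 0.0355), against -0.11 (adjusted p = 0.322) with it.

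The effect of miR-142 loss differed between mice with and without BCR-ABL for 5 of the 93 tested pathway genes, by the test of the difference itself in edgeR, against 3.99% of all tested genes. The log2 fold change in BC CML against CP CML minus that in miR-142 KO against WT was 0.32 for Il10rb (adjusted p = 0.0286), an IL-10 family receptor chain, and 0.69 for Il21r (adjusted p = 0.0133), the IL-21 receptor. It was -2.42 for Il9r (adjusted p = 0.0151), the IL-9 receptor, which rose by 3.18 in miR-142 KO and had 0.76 in BC CML. It was -1.03 for Lifr (adjusted p = 0.0389), which had -0.05 in miR-142 KO, and 0.55 for Socs5 (adjusted p = 0.0282).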

How the results depend on the processing

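No paired analysis was possible because the labels give no replicate numbers that groups share. Under the planned settings other than leaving out mice, members called numbered 2 to 3, 2, 5 to 6, 4 and 0 in BC CML against CP CML, miR-142 KO against WT, CP CML against WT, BC CML against miR-142 KO and the difference of the miR-142 effects. In the main fit 38.0%, 36.3%, 45.4%, 39.6% and 3.99% of all tested genes were called. With each mouse left out, members called ranged from 2 to 3, 2 to 3, 4 to 6, 4 to 4 and 0 to 1 (the last, Stat5b, without BC CML replicate 3). All tested genes called then ranged from 4404 to 5608, 4246 to 5062, 5348 to 6542, 4542 to 6471 and 375 to 787. With only the females, called genes of the 9 numbered 1, 1, 1 and 0 in the first 4 comparisons, and with only the males 1, 2, 1 and 3. These fits hold 3 mice per group. Over all tested genes, females gave 1693, 2308, 3059 and 938 calls in these comparisons, against 5137, 4907, 6143 and 5358 with all mice. Males gave 2915 in miR-142 KO against WT and 3749 in CP CML against WT. Il6st kept its direction and its calls in both miR-142 comparisons in every setting run.

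The ratio of Stat5a to Stat5b kept its direction but not its call in females (0.26 in BC CML against CP CML, 0.22 in miR-142 KO against WT) and in males (0.24 and 0.36), where 3 against 3 mice cannot give an exact permutation p below 0.1. With each mouse left out its log2 differences ranged from 0.24 to 0.28, 0.26 to 0.33, -0.05 to -0.0022 and -0.10 to -0.03 in the 4 comparisons, and those of Jak2 to Jak1 from -0.07 to -0.03, 0.07 to 0.21, -0.11 to -0.04 and -0.34 to -0.20. Signs turned, with no call, for Stat5a to Stat5b in BC CML against miR-142 KO in females (0.0067) and for Jak2 to Jak1 in BC CML against CP CML in females (0.04) and CP CML against WT in males (0.02). The cause was not tested.

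Values that were near 0 and not called turned sign as follows. The difference of the miR-142 effects on Jak1 was -0.0065 with DESeq2, -0.0066 with RLE, -0.02 with at least 1 CPM in 6 samples and -0.02 in females, and it turned in 22 of the 24 fits that left out 1 mouse (-0.05 to 0.01). In females, Jak2 was 0.01 and Stat6 -0.00022 in BC CML against CP CML, and Jak3 0.02 in CP CML against WT. In males, Stat3 was 0.0041 in BC CML against CP CML, the differences of the miR-142 effects were 0.12 for Jak3 and 0.01 for Stat6, and Lif, which was called over both sexes, was -0.08 in miR-142 KO against WT. Stat6 was -0.0039 in BC CML against CP CML with upper quartile scaling. That scaling also lowered the share of all called genes that were higher from 53.7% to 42.4% in BC CML against CP CML, from 54.7% to 42% in miR-142 KO against WT, and from 49.6% to 41.6% in CP CML against WT. Over all tested genes, DESeq2 called 891 differences of the miR-142 effects against 539 in edgeR. In the simulated data, where the changed genes were drawn at random from those tested, fewer 4/3-fold changes than 2-fold changes were called. That share was not measured for the 9 genes. Most of them differed by less than 4/3, and some of these smaller changes were called. Examples are Jak1 in CP CML against WT (-0.14, edgeR adjusted p = 0.00418) and Stat5b in BC CML against CP CML (-0.15, adjusted p = 0.00466).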
